A study of Mus musculus with 16 samples.

Results

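The genes described here encode the proteins of the cytosolic ribosome. They were taken by symbol as the *Rpl*, *Rps* and *Rplp* genes together with *Rpsa*, leaving out entries whose symbol carries the pseudogene ending -ps. This gave 89 of the 54347 genes in the count table, 53 with large subunit symbols and 36 with small subunit symbols, spread over 19 chromosomes. By annotation 83 of the 89 were protein-coding and 6 were pseudogenes, namely *Rps3a2*, *Rps3a3*, *Rps12l1*, *Rpl6l*, *Rpl32l* and *Rps4l*. After the filter on low counts, 83 of the 89 were tested (48 large, 35 small). The samples were mouse brown adipocytes of the wt1-SAM line, a single immortalised brown preadipocyte line that stably expresses the CRISPRa SAM components, by which a guide RNA can recruit transcriptional activators to a chosen gene. All groups were differentiated with rosiglitazone, T3, dexamethasone, insulin, indomethacin and IBMX, reverse transfected with 250 ng of plasmid on day 4, and harvested on day 7. The plasmid was either the empty sgRNA vector or the pair pSgRNA-MS2-2+7, which carries guides to the long noncoding RNA gene *Gm15551*, and cells were left as control or stimulated for 24 h with the β-adrenergic agonist isoproterenol at 1 µM. The replicate numbers 3, 4, 5 and 6 occurred once in each of the 4 groups (empty vector control, empty vector isoproterenol, sgRNA control and sgRNA isoproterenol), giving 16 libraries of polyadenylated RNA.

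Each ribosome joins a small subunit, which reads the mRNA, to a large subunit, which forms the peptide bond, and nearly every ribosomal protein is needed in a single copy per ribosome. The mRNAs of these proteins typically begin with a terminal oligopyrimidine (TOP) tract, a C followed by a run of C and T, through which mTOR signalling controls their translation. In brown adipocytes β-adrenergic agonists raise cAMP and switch on the thermogenic programme, of which *Ucp1* is the best known gene.

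The TOP tract is the sequence feature that this gene family is known for, so it was looked for at annotated transcription starts. RefSeq promoter entries (GRCm38.p6) matched 64 of the 89 genes. A C at the annotated start followed by at least 4 bases that were C or T was present in 14 of these 64 genes (21.9%), against 3.01% of all 27025 genes with an entry. When the run could begin within 5 bases of the start, the shares were 46.9% and 21.2%. In the windows printed here, 15 bases before the start are followed by the 15 bases from the start onwards, read 5′ to 3′ on the strand of the gene, and capitals mark the run of C and T that begins with a C at the start. Among genes with a TOP start, *Rps6* encodes the substrate after which the S6 kinases are named, *Rps10* and *Rps27* encode small subunit proteins, and *Rpl15* encodes a large subunit protein:
*Rps6* (chr4:86857353-86857382, minus strand): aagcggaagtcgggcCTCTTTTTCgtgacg
*Rps10* (chr17:27635230-27635259, minus strand): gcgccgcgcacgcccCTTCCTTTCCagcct
*Rpl15* (chr14:18270972-18271001, minus strand): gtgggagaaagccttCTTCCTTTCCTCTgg
*Rps27* (chr3:90213634-90213663, minus strand): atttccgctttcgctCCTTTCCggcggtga
As examples without such a run at the annotated start, *Rpl5*, *Rpl22l1* and *Rps7*, described under isoproterenol, are printed as well, and in *Rpl22l1* a run begins within 5 bases after the start:
*Rpl5* (chr5:107900513-107900542, plus strand): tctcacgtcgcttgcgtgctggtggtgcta
*Rpl22l1* (chr3:28805493-28805522, plus strand): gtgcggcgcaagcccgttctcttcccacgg
*Rps7* (chr12:28635939-28635968, minus strand): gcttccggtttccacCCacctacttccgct
The windows are no contrast between genes that did and did not change, since *Rps6*, *Rpl15* and *Rpl14*, which have a TOP start, were also higher with isoproterenol in 8 of 8 pairs. The letters CTTCCG, on either strand of the 300 bases from 250 before to 50 after the start, were found in 42 of the 64 genes (65.6%), against 18.8% of all genes. TATAAA on either strand was found in 12.5% of the ribosomal protein genes and 15.7% of all genes, and CCAAT on either strand in 29.7% and 41.1%.

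Total estimated counts per library ranged from 9053521 to 16546187, of which the ribosomal RNA gene *CT010467.1* took 11.7% to 51.8%, with the 3 values above 40% all in empty vector cells. *Gm15551*, to which the guides were directed, had 3 to 18 counts in empty vector control libraries, 0 to 5 in empty vector isoproterenol libraries, 19 to 56 in sgRNA control libraries and 13 to 26 in sgRNA isoproterenol libraries. Of 12 brown adipocyte markers, 11 passed the filter, with summed levels of 9203 to 21890 depth-scaled counts (CPM). CPM are counts relative to the size of each library after TMM scaling, which is given with the data processing. *Ucp1* was higher with isoproterenol by 4.03 on the log2 scale. Of 4 endothelial and 4 muscle markers, 1 each passed, and the muscle regulators *Myod1* and *Myf5* were at 0 in all libraries. Nothing in the labels says whether replicates were separate cultures, so p-values measure the spread between these libraries, which may be technical.

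Ribosomal protein transcripts made up between 3.94% (95% Wilson interval 3.925 to 3.955) and 6.97% (6.953 to 6.98) of the counts outside *CT010467.1*. In replicates 3, 4, 5 and 6, in this order here and in every list of 4 values that follows, the share was 6.48%, 5.90%, 3.94% and 4.39% in empty vector control cells and 6.51%, 6.94%, 4.00% and 5.14% in empty vector cells with isoproterenol. It was 5.73%, 5.83%, 4.03% and 4.66% in sgRNA control cells and 6.52%, 6.97%, 4.71% and 5.13% in sgRNA cells with isoproterenol. The 4 groups overlapped, whereas all libraries of replicates 3 and 4 lay above all libraries of replicates 5 and 6. Group means were 5.18% ± 1.21, 5.65% ± 1.34, 5.06% ± 0.866 and 5.83% ± 1.08 (SD, n = 4). Within a pair of libraries that shared plasmid and replicate number, the isoproterenol library had the higher share in 8 of 8 pairs, by 0.029 to 1.039 percentage points in empty vector cells and by 0.463 to 1.135 in sgRNA cells. This held for counts without *CT010467.1*. As a share of all counts the isoproterenol library was higher in 5 of 8 pairs and lower in 3 (3.8% against 5.13% and 1.93% against 2.08% in empty vector cells of replicates 3 and 5, and 3.66% against 3.74% in sgRNA cells of replicate 6), and the empty vector means were 3.66% with isoproterenol and 3.78% in control. Large subunit genes accounted for 2.36% to 4.10% of the counts and small subunit genes for 1.58% to 2.88%. In bulk RNA, a lower share of the cells carrying a transcript cannot be told apart from less of it per cell.

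**Figure D1:**
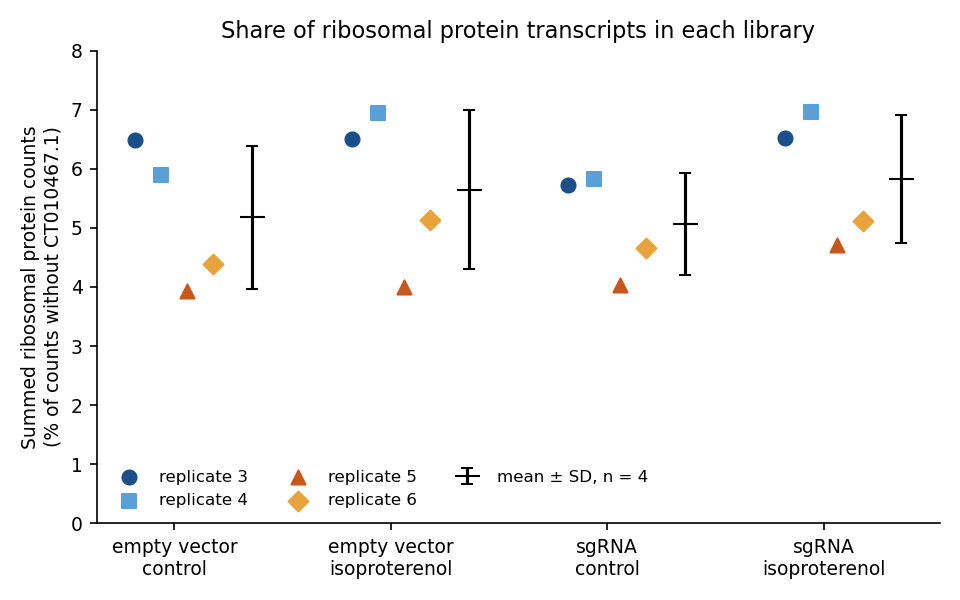
Summed counts of the 89 ribosomal protein genes as a percentage of counts without *CT010467.1* (vertical axis) in each of 16 libraries, by group (horizontal axis). Symbols and colours mark the replicate number and black bars the group mean ± SD (n = 4); replicates 3 and 4 lie between 5.73% and 6.97%, and replicates 5 and 6 between 3.94% and 5.14%.

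Levels differed widely between the genes. Per kilobase of transcript, averaged over 16 libraries, *Rplp0* and *Rplp1*, which encode proteins of the stalk that binds translation factors, were highest with 2466 and 2404 CPM per kb, followed by *Rpl13a* with 1851. The lowest of the genes tested were *Rps4l* with 3.61, *Rpl5* with 29.6, *Rpl12* with 34.6 and *Rps13* with 77.1 CPM per kb. Per kilobase of coding sequence, taken as the longest complete one annotated, the order at the top was *Rplp1* (3477), *Rpl41* (3007) and *Rplp0* (2208). The lowest protein-coding genes tested were *Rpl5* (47.7), *Rpl12* (86.3), *Rps27* (129) and *Rps13* (161). A shorter coding form would give a higher value, as for *Rpl41*, for which 141 bases were used, so the order depends on this choice.

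Low values of several of these genes stood beside near-identical copies elsewhere in the genome, between which a quantifier has to divide reads. Copies were defined as genes with at least 95% identity over at least 80% of the coding sequence. Of 80 protein-coding members with a mean count of at least 10, copies held more than 10% of the summed counts for 23 and more than 50% for 10. *Rpl5* had a mean of 550 counts, or 5.8% of its family, while *Gm15500*, identical to its coding sequence, had 9005. *Rpl12* held 6.8% of its family, most of the rest lying on *Gm10275*, and *Rps27* held 16.6%, most of the rest lying on *Rps27rt*. *Rps3a1* held 19.0%, while its copies *Rps3a2* and *Rps3a3*, which are themselves among the 89 genes, had means of 5004 and 2464 counts. The own shares were 28.9% for *Rps13*, 34.5% for *Rpl27a*, 37.9% for *Rpl35*, 40.3% for *Rpl11*, 46.6% for *Rps23* and 47.4% for *Rpl10*. Values of these 10 genes, and of *Rps3a2* and *Rps3a3*, are therefore uncertain as values of 1 locus. With all copies added, the share of ribosomal protein counts was 4.45% to 7.88%.

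**Figure D2:**
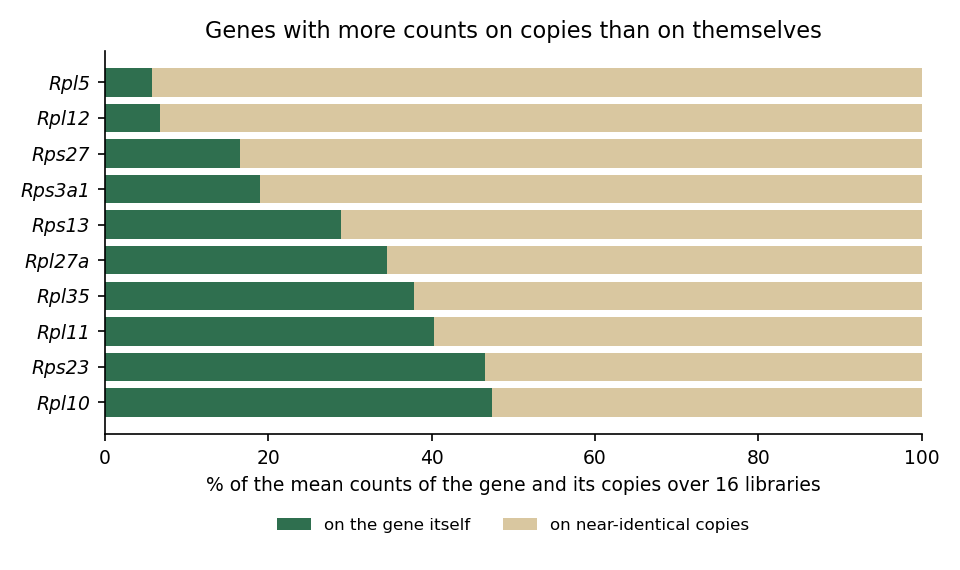
Share of the mean counts over 16 libraries that lay on the gene itself (green) and on its near-identical copies (beige), in percent (horizontal axis), for the 10 protein-coding genes with more counts on copies than on themselves. *Rpl5* is lowest with 5.8% on the gene itself and *Rpl10* highest with 47.4%.

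To find how β-adrenergic stimulation changed ribosomal protein transcripts, isoproterenol and control libraries were compared over both plasmids. The estimates lay above 0 for 81 of the 83 genes, with a median log2 fold change of 0.21 against 0.00 over all 13150 genes tested and a range from −0.08 (*Rplp2*) to 0.55 (*Rpl5*). Without a replicate term only *Rpl5* passed an adjusted p of 0.05, where 2.06% of all genes were called higher and 2.43% lower. With the replicate number as a block, 48 of the 83 genes rose and 0 fell, where 10.9% of all genes were called higher and 10.4% lower. These 48 were 29 of the 48 large subunit genes and 19 of the 35 small subunit genes. Their log2 fold changes were small, from 0.15 to 0.55. *Rpl5* was the only one called with a size bound of 0.5 in either fit, where 1.33% of all genes were called higher without the block and 3.09% with it. The median was 0.21 for large and 0.23 for small subunit genes, and a difference between the subunits was not tested. The blocked count was 18 without replicate 4, 30 without replicate 6 and 55 without the 3 libraries in which *CT010467.1* exceeded 40%, where 6.79%, 7.5% and 8.25% of all genes were called higher, and none of the 83 fell in any of these fits.

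**Figure D3:**
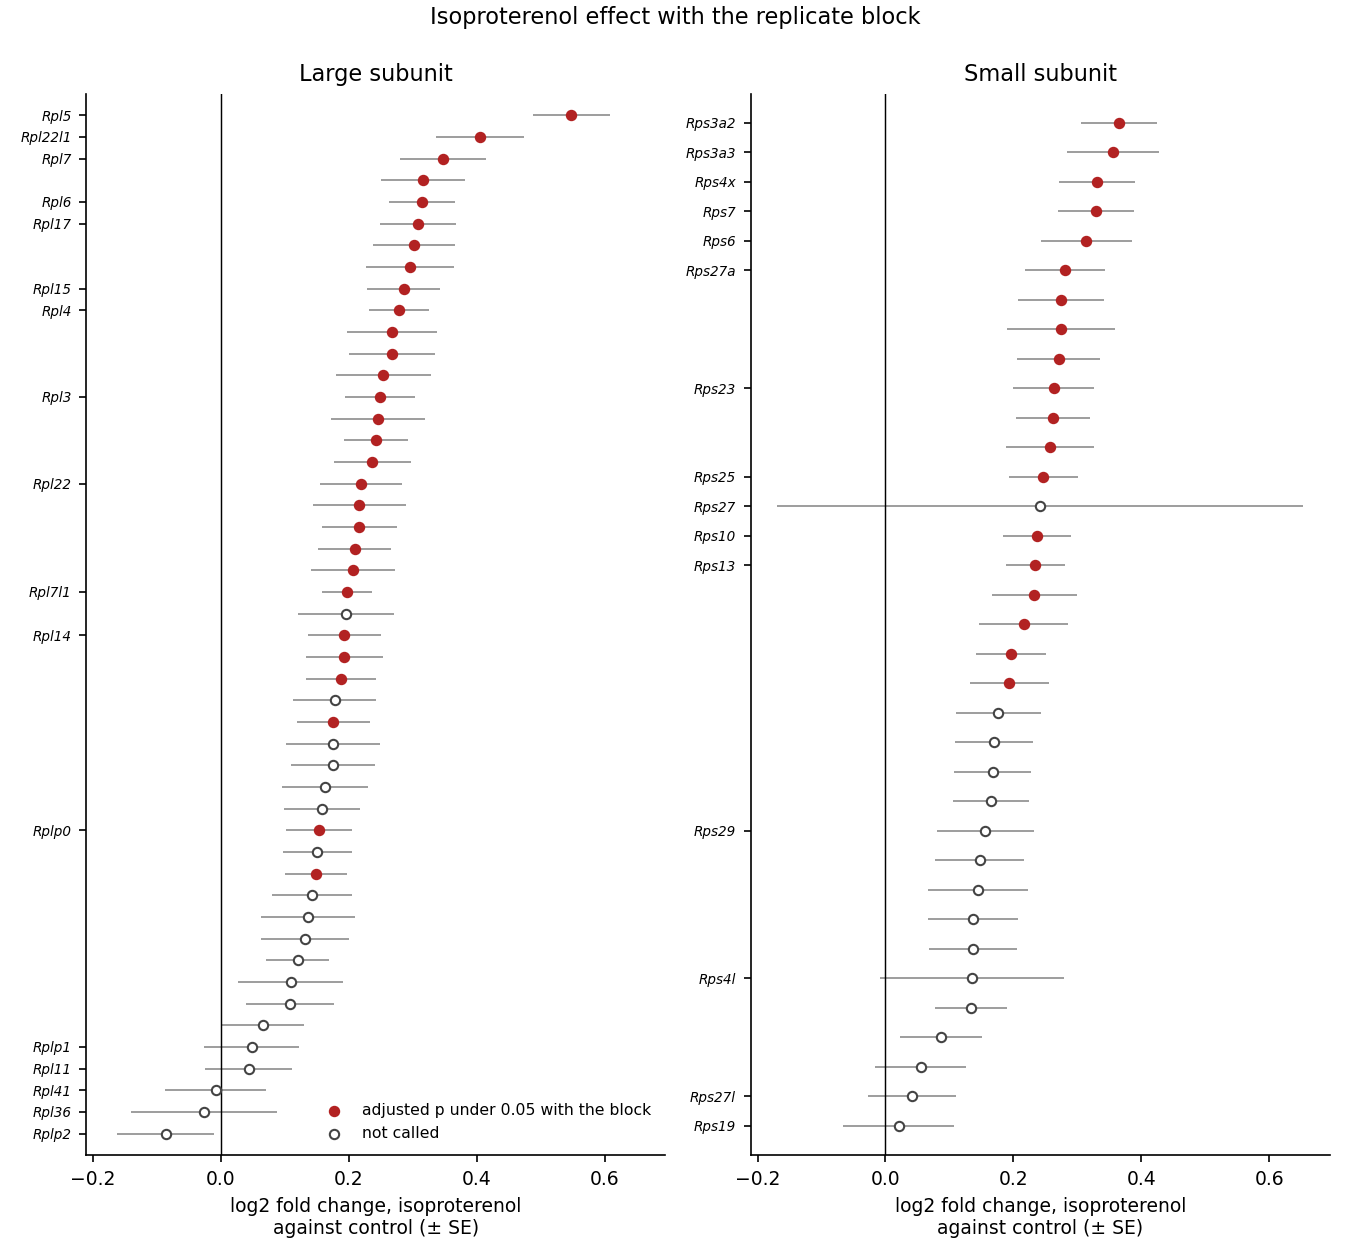
Log2 fold change of each of the 83 ribosomal protein genes tested, isoproterenol against control over both plasmids with the replicate block (horizontal axis, ± SE, 16 libraries), in panels for large and small subunit genes. Red points mark the 48 genes with an adjusted p under 0.05; they lie between 0.15 and 0.55, and no gene was called lower. Names are shown for a selection of genes described in the text.

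*Rpl5* (chr5:107900502-107909005, plus strand, GRCm38), whose protein binds 5S ribosomal RNA in the large subunit, lay at 38.1, 34.6, 28.4 and 34.7 CPM in empty vector control cells and at 64.2, 53.8, 38.2 and 45.4 CPM with isoproterenol. In sgRNA cells it lay at 41.2, 35.1, 31.8 and 32.8 CPM in control and at 52.1, 56.9, 41.5 and 53.7 CPM with isoproterenol. Within each plasmid every stimulated library lay above every control library, by a narrow margin at the closest values, and all 8 pairs rose. On the log2 scale the rise was 0.55 ± 0.11 (SE, adjusted p = 0.0065), and 0.55 ± 0.060 under the block (adjusted p = 9.7e-06). Without replicate 4 the estimate was 0.51 with an adjusted p of 0.11. With the counts of its copies added it was 0.32 with an adjusted p of 0.26, and 0.30 with an adjusted p of 0.0058 under the block.

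*Rpl22l1* (chr3:28805436-28807424, plus strand), a paralog of *Rpl22* whose protein can take its place in the ribosome, had the next smallest p. It lay at 74.7, 68.6, 67.3 and 68.6 CPM in empty vector control cells, at 122, 93.5, 64.9 and 78.9 CPM with isoproterenol, at 72.8, 67.7, 49.9 and 65.7 CPM in sgRNA control cells and at 94.0, 97.9, 73.6 and 87.6 CPM with isoproterenol. The sgRNA groups did not overlap, and in empty vector cells the pair of replicate 5 went the other way. The log2 fold change was 0.41 ± 0.11 (SE, adjusted p = 0.052), and 0.41 ± 0.069 under the block (adjusted p = 0.00057). For *Rpl22*, the parent gene, the estimate was 0.25, and 0.22 under the block (adjusted p = 0.023). Leaving out libraries or replicate numbers, without the block, moved the *Rpl22* estimate between 0.13 and 0.33.

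*Rps7*, which encodes a small subunit protein needed for processing of the small subunit ribosomal RNA, showed the pattern at a higher level. Its values were 496, 456, 362 and 409 CPM in empty vector control cells, 709, 593, 371 and 490 CPM with isoproterenol, 441, 453, 357 and 420 CPM in sgRNA control cells and 589, 600, 449 and 503 CPM with isoproterenol. All 8 pairs rose while the groups overlapped, and libraries of replicates 5 and 6 were the lowest in each group. The log2 fold change was 0.34 (adjusted p = 0.13), and 0.33 under the block (adjusted p = 0.00099). *Rpl7l1*, a paralog of *Rpl7* on chr17:46773907-46782672 (minus strand), changed less, with 142.5, 124, 125 and 122 CPM in empty vector control cells and 167, 148, 132 and 144 CPM with isoproterenol. In sgRNA cells it had 129, 125, 110.1 and 119.8 CPM in control and 150.4, 139.8, 125 and 138 CPM with isoproterenol. It rose in 8 of 8 pairs, by 0.20 (adjusted p = 0.11, and 0.0019 under the block).

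The other genes with the smallest p values were *Rpl7*, *Rpl17* and the pseudogene copies *Rps3a2* and *Rps3a3*. Without the block none of the 4 was called, and under it they rose by 0.35, 0.31, 0.37 and 0.36 with adjusted p values of 0.0016, 0.0017, 0.00041 and 0.0023. Each was higher with isoproterenol in 8 of 8 pairs. Among other large subunit genes under the block, *Rpl6* rose by 0.31 and *Rpl4* by 0.28, and *Rpl3*, close to the peptidyl transferase centre, rose by 0.25. Among small subunit genes, *Rps4x* rose by 0.33, *Rps6* by 0.31 and *Rps27a*, which encodes a ubiquitin fusion, by 0.28. The stalk genes differed in their calls. *Rplp0* lay at 2593, 2224, 1780 and 1674 CPM in empty vector control cells and 2815, 2592, 1767 and 1971 CPM with isoproterenol, and at 2212, 2119, 1518 and 1803 CPM in sgRNA control cells and 2546, 2454, 1677 and 1956 CPM with isoproterenol. The groups overlapped, and its blocked estimate of 0.15 had an adjusted p of 0.046, just inside the threshold, whereas *Rplp1* (0.07 without the block) and *Rplp2* (−0.08) were not called in either fit. *Rpl11*, whose protein binds 5S ribosomal RNA together with that of *Rpl5*, had an estimate of 0.05, *Rps19* of 0.03, *Rpl41* of 0.00 and *Rpl36* of −0.03, none of which was called.

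The 8 pairs did not move alike. The median log2 difference over the 83 genes was 0.26, 0.27, −0.09 and 0.21 in empty vector cells and 0.28, 0.33, 0.26 and 0.14 in sgRNA cells. In the empty vector pair of replicate 5, both of whose libraries held more than 40% *CT010467.1*, 21 of 83 genes were higher with isoproterenol, against 65 to 82 in each of the other 7 pairs. In all 8 pairs 15 of 83 genes were higher, against 8.16% of all genes tested, and in at least 7 pairs 64 of 83, against 17.2%. Those higher in all 8 pairs were *Rpl4*, *Rpl5*, *Rpl6*, *Rpl7*, *Rpl7l1*, *Rpl14*, *Rpl15*, *Rpl17*, *Rps3a2*, *Rps3a3*, *Rps4x*, *Rps6*, *Rps7*, *Rps23* and *Rps25*.

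**Figure D4:**
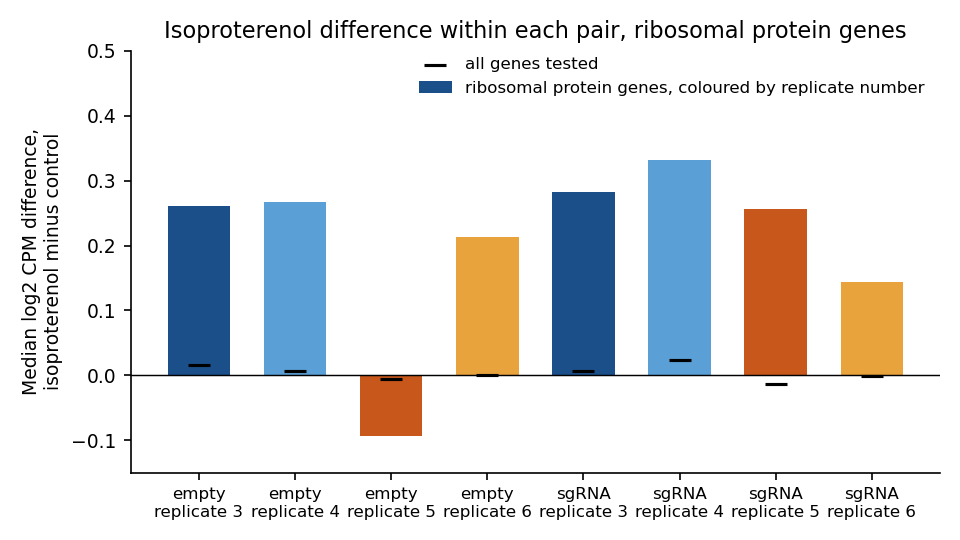
Median log2 CPM difference between the isoproterenol and the control library of each pair (vertical axis) over the 83 ribosomal protein genes tested (bars, coloured by replicate number) and over all 13150 genes tested (black dashes), for the 4 pairs of each plasmid (horizontal axis). Bars lie between 0.14 and 0.33 except in the empty vector pair of replicate 5, at −0.09.

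Markers of cell types moved with the same comparison. Of the 11 brown adipocyte markers tested, 2 rose (*Ucp1* and *Ppargc1a*, the latter by 0.71) and 3 fell (*Adipoq* by 1.06, *Lipe* by 0.69 and *Ebf2* by 0.48), with a median of −0.34, and under the block 3 rose and 6 fell. The shares of all genes were 2.06% higher and 2.43% lower without the block, and 10.9% and 10.4% with it. The summed macrophage marker level over 6 genes was 8.91 to 17.5 CPM in control libraries and 17.2 to 27.6 CPM with isoproterenol, and the 2 that passed the filter, *Cd68* and *Cd14*, rose by 0.91 and 0.82, while none of the 6 was at 0 in all libraries. Of the 5 preadipocyte or fibroblast markers tested, 0 were called without the block, and *Ly6a* rose by 1.09 under it. The cells were of a single line, so these markers give levels of genes and not amounts of cell types. Their relation to the change of ribosomal protein genes was not tested. The share of *CT010467.1* was 17.8% to 47.3% in control and 11.7% to 51.8% in stimulated libraries, and with this share as a covariate 9 of the 83 genes were called higher, where 416 of all 13150 genes were.

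Within single plasmids, edgeR called 0 of 83 genes without the block, with 3 genes in empty vector cells and 5 in sgRNA cells at an unadjusted p under 0.05, where 1332 and 1112 of all 13150 genes were. DESeq2 called 1 of the 83 higher in each, where it called 134 and 122 of all genes higher. In empty vector cells the median was 0.18, or 0.0015 without the stimulated library of replicate 3, and the blocked fit called 11 genes higher and 0 lower (background 4.5% higher and 5.07% lower, and 0.479% and 0.433% without the block). In sgRNA cells the median was 0.25, and the blocked fit called 25 genes higher and 0 lower (background 4.28% higher and 4.12% lower, and 0.403% and 0.319% without the block). These counts do not show a difference between plasmids, because the interaction called 0 of the 83 genes in either fit, as it did for all genes (background 0). At an unadjusted p under 0.05 were 0 of the 83 genes without the block and 1 with it, against 52 and 199 of all genes. DESeq2 called 0 of the 83 for the interaction, and its count over all genes is not given here. The median interaction estimate was 0.09, while the pair medians gave an SD of 0.18 between replicate numbers. By pair medians, the isoproterenol difference was higher in sgRNA cells in replicates 3, 4 and 5, most of all in replicate 5. In replicate 6 it was lower in sgRNA cells. The genes that ranked highest by p were *Rpl41* (0.26 ± 0.28, SE), which encodes the shortest ribosomal protein, *Rpl36* (0.33 ± 0.43) and *Rps13* (0.26 ± 0.34). With the *CT010467.1* covariate the estimates of *Rpl36* and *Rps13* were 0.15 and 0.11, and with copies added that of *Rps13* was 0.10.

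Genes that work with the ribosome were examined alongside, for which the shares of all genes called were again 10.9% higher and 10.4% lower under the block, and 2.06% and 2.43% without it. Under the block, 17 of 44 translation initiation and elongation factor genes rose and 0 fell, with a median of 0.13 without the block, where 0 were called. *Eef1g*, an elongation factor subunit, rose by 0.26 under the block (adjusted p = 0.00068). Of 15 other TOP or ribosome-linked genes, 10 rose under the block and 1 without it, *Hnrnpa1*, by 0.29 (adjusted p = 0.034). Among them, *Rack1*, a scaffold protein of the small subunit, rose by 0.32 and *Tpt1*, a classical TOP gene, by 0.37 under the block. Of 45 ribosome biogenesis genes, 19 rose under the block and 5 without it (*Wdr43*, *Utp15*, *Utp20*, *Heatr1* and *Nmd3*), and 0 fell in either fit. The nucleolar genes *Gnl3* and *Nop56* rose by 0.34 and 0.23 under the block. Of 21 tested genes that control ribosome synthesis through TOR and MYC, 1 rose under the block (*Larp4*) and 3 fell (*Akt1s1*, *Eif4ebp1* and *Mxd4*), and *Mxd4*, a MYC antagonist, also fell without it, by 0.46. The 78 mitochondrial ribosomal protein genes, which encode a separate ribosome, had a median of −0.05, and 9 of them fell under the block, a share near that of all genes, while 0 rose.

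Whether activation of *Gm15551* changed ribosomal protein transcripts was asked by comparing sgRNA with empty vector libraries over both treatments. None of the 83 genes was called by edgeR, without or with the block. Of all genes, 0 were called without the block, and 0.137% higher and 0.449% lower with it. At an unadjusted p under 0.05 were 0 and 5 of the 83 in these edgeR fits, against 437 and 1506 of all genes. DESeq2 also called 0 of the 83, but its count over all genes is not given here. The median log2 fold change was −0.05 with 21 of 83 estimates above 0, but scaling to total counts without *CT010467.1* moved it to 0.00 with 42 above 0. Fitting the *CT010467.1* share, which was 19.7% to 51.8% in empty vector and 11.7% to 28.7% in sgRNA libraries, moved it to −0.28 with 1 above 0, so the family's estimate moved with the scaling and the covariate. The median was −0.10 in control cells and −0.01 in stimulated cells. Single pairs went both ways, with medians of −0.26, −0.02, −0.12 and 0.08 in control and −0.25, 0.04, 0.19 and 0.03 in stimulated cells.

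*Rps27* (chr3:90212522-90213651, minus strand), which encodes a zinc finger protein of the small subunit, had the lowest estimate. It lay at 38.1, 27.1, 55.2 and 43.9 CPM in empty vector control cells, at 125, 37.4, 20.1 and 15.4 CPM with isoproterenol, at 44.4, 4.94, 3.89 and 13.5 CPM in sgRNA control cells and at 39.98, 34.2, 18.3 and 3.53 CPM with isoproterenol. These values scattered widely within each group and the groups overlapped, with sgRNA cells lower in 7 of 8 pairs. The log2 fold change was −1.16 ± 0.55 (SE, adjusted p above 0.99), and −1.27 under the block (adjusted p = 0.22). With the counts of its copies added it was −0.22. Its paralog *Rps27l* was lower in sgRNA cells in 8 of 8 pairs, by an estimate of −0.22, as was *Rpl39*, by −0.26, and neither was called in either fit. The share of all genes lower in as many pairs is not given here, so these pair counts say nothing about these genes in particular. The remaining genes with the smallest p values had estimates of −0.20 (*Rps29*), −0.18 (*Rps21*), −0.14 (*Rps28*), −0.13 (*Rps26*) and −0.09 (*Rpl7l1*), none called.

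Differences between replicate numbers reached every gene tested. In a joint test of the 3 differences between replicate numbers, beside the 4 group means, 83 of 83 genes were called, against 54.7% of all genes, with adjusted p values from 2.0e-07 to 0.034. Relative to replicate 3, the median over the 83 genes was −0.10 in replicate 4, −0.60 in replicate 5 and −0.54 in replicate 6, while the medians over all genes tested were −0.01, 0.00 and 0.00. With replicates 5 and 6 averaged against 3 and 4, 82 of the 83 genes were lower and 1 was higher (background 24.3% lower and 24.8% higher), with a median of −0.56 for large and −0.57 for small subunit genes. In 51 of 83 genes every library of replicates 5 and 6 lay below every library of replicates 3 and 4, against 4.24% of all genes.

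**Figure D5:**
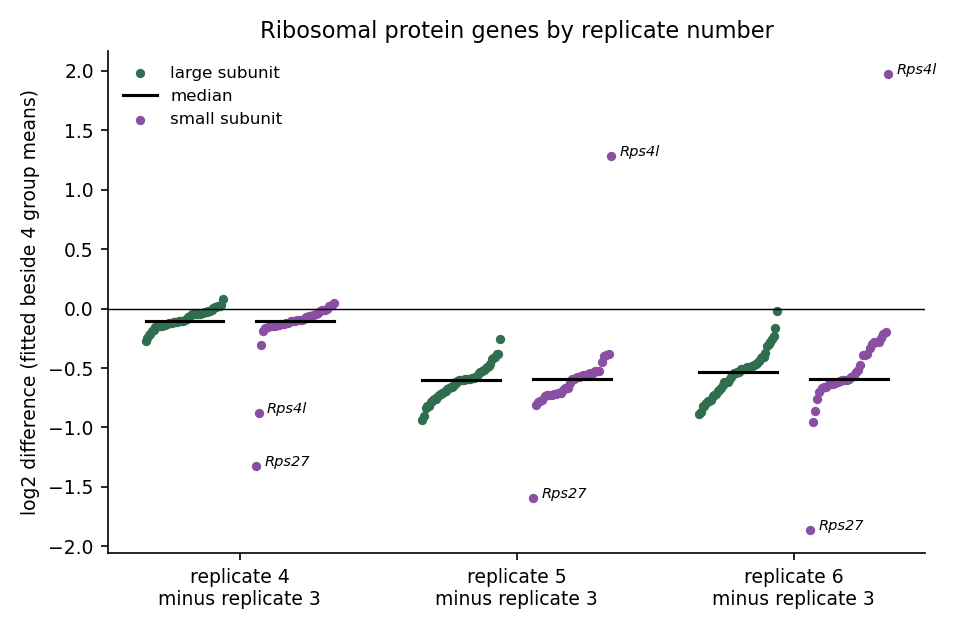
Log2 difference of replicates 4, 5 and 6 from replicate 3 (vertical axis), fitted beside the 4 group means over 16 libraries, for each of the 83 genes tested (points, green for large and purple for small subunit, black lines for medians). The medians over both subunits are −0.10, −0.60 and −0.54, and *Rps4l* lies above the rest in replicates 5 and 6 (1.28 and 1.98) but at −0.87 in replicate 4.

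*Rps10*, the small subunit gene whose TOP start is printed above, was among the genes with the smallest p. Its values were 583, 489.6, 377 and 351 CPM in empty vector control cells, 682, 602, 349 and 418 CPM with isoproterenol, 485, 483.5, 310.2 and 352 CPM in sgRNA control cells and 596, 601, 393 and 426 CPM with isoproterenol. Every library of replicates 5 and 6 lay below every library of replicates 3 and 4, in all groups. Other genes with the smallest p were *Rps13*, with means of 91.4 ± 13.6, 88.3 ± 8.53, 54.5 ± 4.54 and 59.6 ± 6.94 CPM in the 4 replicate numbers (SD, n = 4 libraries of different groups), and *Rpl22*, with means of 307, 286, 172 and 186 CPM. *Rpl29* had means of 486, 470.1, 321 and 336.5 CPM, and *Rps25* of 514, 460.3, 310.5 and 335.5 CPM. In each of these genes both means of replicates 5 and 6 lay below both means of replicates 3 and 4.

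*Rps4l* (chr6:148354656-148355598, plus strand), annotated as a pseudogene and 80.1% identical to *Rps4x* over the coding sequence, went the other way. It lay at 1.26, 0.526, 4.42 and 5.30 CPM in empty vector control cells, at 1.80, 0.941, 4.45 and 6.56 CPM with isoproterenol, at 1.82, 0.988, 3.29 and 6.46 CPM in sgRNA control cells and at 1.42, 0.962, 3.36 and 6.497 CPM with isoproterenol. All libraries of replicates 5 and 6 lay above all libraries of replicates 3 and 4, on 8 to 92 counts per library. The log2 difference was 2.07 ± 0.15 (SE, adjusted p = 6.0e-08). The smallest differences among the genes lower in replicates 5 and 6 were those of *Rpl7l1* (−0.14), *Rpl17* (−0.18) and *Rps29* (−0.21).

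Markers and other lists moved with the replicate number as well. Summed brown adipocyte markers were 16200 to 21890 CPM in replicates 3 and 4 and 9203 to 19020 CPM in replicates 5 and 6, and summed preadipocyte or fibroblast markers were 97.4 to 154 CPM in replicate 6 against 31.8 to 79.6 CPM in the other libraries. Mitochondrial ribosomal protein genes were lower in replicates 5 and 6 in 54 of 78 and higher in 1, with a median of −0.23. Of 44 translation factor genes, 28 were lower and 3 higher. Of 45 ribosome biogenesis genes, 27 were lower and 3 higher, with a median of −0.25. Of 15 other TOP or ribosome-linked genes, 12 were lower and 0 higher, with a median of −0.26. Of 21 TOR and MYC genes, 3 were lower and 7 higher with a median of 0.10. Among all genes 24.3% were lower and 24.8% higher. The part of cell composition in these differences was not tested. With the *CT010467.1* share as a covariate, 79 of the 83 genes were still called lower in replicates 5 and 6, where 2064 of all 13150 genes were.

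Across the 16 libraries the 83 genes varied together. The median Pearson correlation between members was 0.88 on log2 CPM and 0.91 after group means were removed, as a description of libraries that share their scaling and depth. The correlation between all genes tested is not given here, and 54.7% of them differed between replicate numbers, so these values are not shown to be particular to the family. The genes whose median correlation with the others was lowest after group means were removed were *Rps4l* (−0.79) and *Rps27* (0.52).

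The genes named as paralogs of other members were mostly at low levels or not detected. *Rpl3l* had 0 to 5 counts per library, *Rpl6l* 0 to 8, and *Rpl39l* and *Rpl32l* 0 to 1, while *Rpl10l* and *Rps12l1* had 0 in every library, where 3 counts, the limit that a count of 0 allows, correspond to 0.166 to 0.39 CPM. None of these 6 was tested, whereas their parents *Rpl3*, *Rpl6*, *Rpl39*, *Rpl32*, *Rpl10* and *Rps12* were all tested. The coding sequences of *Rpl3l*, *Rpl10l* and *Rpl39l* were 74.4%, 84.8% and 85.3% identical to those of their parents, while *Rpl6l*, *Rpl32l* and *Rps12l1* were 98.7%, 97.2% and 100% identical, so that reads may be divided between them and the parent. Per kilobase of the longest coding sequence, *Rpl7l1* stood at 181 against 650.3 CPM for *Rpl7*, to which it was 62.6% identical. *Rps27l* stood at 519 against 129 CPM for *Rps27*, to which it was 76.1% identical and most of whose family counts lay on a copy. The lengths used were 318 bases for *Rps27l* and 255 for *Rps27*. *Rpl22l1*, 70.2% identical to *Rpl22*, stood at 211 against 614 CPM per kb of coding sequence, but at 145 against 116 CPM per kb of transcript, so their order depended on the length used.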

How the data were processed

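Polyadenylated RNA of 16 libraries was sequenced in paired ends. The authors trimmed reads with cutadapt, quantified them with salmon against GENCODE transcripts of GRCm38, and deposited estimated counts per gene, whole numbers without normalisation, for 54347 genes. Versions of these tools and the strand setting are not given in the sources used here, so overlapping and antisense genes cannot be told apart. All 16 columns were mapped to samples by title and used.

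Tests used edgeR 4.0.16 in R 4.3.3 on the estimated counts, which needed no rounding. filterByExpr (minimum count 10, minimum total 15) kept 13150 genes, TMM set the scaling, and quasi-likelihood tests of contrasts of the 4 group means were two-sided with Benjamini-Hochberg adjustment over all 13150 genes. Called means an adjusted p under 0.05, with an absolute log2 fold change over 0.5 where a size bound is named. The replicate number was tested jointly beside the group means. CPM values are on TMM-scaled library sizes, log2 CPM used a prior count of 2, and SE is the estimate divided by the root of F. The scripts were tested on simulated data.

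Same-numbered libraries of different groups deviated together from their group means (correlations of 0.22 to 0.61 over 24 pairs, against −0.51 to 0.52 with a median of −0.21 over 72 pairs of different numbers, so the ranges overlap), so the numbers in the titles were treated as pairing the libraries, and blocked values stand where they change a call. The median biological coefficient of variation was 18.0% without the block and 9.96% with it. No pair of libraries agreed within sampling noise, since the lowest chi-square per gene between libraries of a group was 5.31.

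The members and gene lists were chosen with earlier results of these data known. Named genes were up to 8 with the smallest p for isoproterenol, sgRNA and replicate number, 3 for the interaction, the 4 highest and 4 lowest per kilobase, paralogs with their parents, and members that failed the filter. Some genes that this rule names are not reported here. Others were named as examples after their values were seen. Copies were found with blastn 2.17.0. Gene positions and lengths came from GENCODE M21 (GRCm38), in which all 89 identifiers matched, while the authors name M22. Alternatives were the replicate block, RLE, upper quartile and total-count scaling, no filter, -ps entries added, DESeq2 1.42.0, the *CT010467.1* share as a covariate, and leaving out each library or replicate number. Added after the data were seen were summed copies, single pairs, and the blocked fit without single libraries. Intervals and the limit of 3 counts cover counting error only, since without molecular identifiers several reads can stem from 1 molecule.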

Additional observations from a re-analysis of the deposited data

Results flagged for a closer look

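In 96 sets of 4 libraries (named genes in each group), 2 held a library far from the other 3. Chance gives such a library in about 1 of 20 sets. *Rpl7l1* was at 142.5 CPM in the empty vector control library of replicate 3, against 121.9 to 125.3 CPM in the others of its group. *Rps29* was at 323.5 CPM in the empty vector isoproterenol library of replicate 3, against 191.4 to 210.4 CPM in the others.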

How the results depend on the processing

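The isoproterenol rise kept its direction in the median of the 83 genes under every scaling, filter and tool tried, and in every fit that left out libraries or a replicate number, while the single empty vector pair of replicate 5 gave −0.0931. The count of genes called depended on the model. Averaged over plasmids it was 1 without the replicate block, 48 with the block, 48 with the block and copies added, 2 with RLE scaling, 5 with DESeq2 and 9 with the *CT010467.1* share as a covariate. In the same order, 271, 1433, 1428, 279, 479 and 416 of all genes tested were called higher. Leaving out libraries or replicate numbers gave 0 (without replicate 4) to 8 (without the empty vector isoproterenol library of replicate 5), where 97 and 392 of all genes were called higher, and 18 to 58 with the block, where 6.79% and 11.5% were. In empty vector cells it was 0, against 11 with the block and 10 with the block and copies added. There it was 1 with DESeq2, 1 with the covariate and 0 to 1 on leaving out libraries. In sgRNA cells it was 0, against 25 with the block, 26 with copies and 1 with DESeq2. Of all genes, 0.479% in empty vector and 0.403% in sgRNA cells were called higher without the block, and 4.5% and 4.28% with it. For the single-plasmid fits with copies, the covariate or libraries left out, the shares of all genes are not given here. Those counts therefore say nothing about these genes in particular. Without single libraries or replicate numbers the median ranged from 0.0015 (without the empty vector isoproterenol library of replicate 3) to 0.31 in empty vector cells and from 0.15 to 0.34 in sgRNA cells. For sgRNA against empty vector the covariate moved the median to −0.28 averaged, −0.26 in control and −0.29 in stimulated cells. The block changed no call for sgRNA or the interaction. Gene estimates without single libraries were recomputed for some of the named genes only. Among these, the isoproterenol estimates of 3 uncalled genes changed sign, from −0.11 to 0.97 for *Rps27*, −0.040 to 0.13 for *Rps27l* and −0.21 to 0.45 for *Rps4l*, which was −0.23 with the covariate. The share of genes with a TOP start was 46.9% when it could lie within 5 bases. The causes were not tested. Depth limits *Rps4l* and the genes not tested, and the counts of near-identical copies limit the values of single loci.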
